A study of Mus musculus with 16 samples.

Results

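Beclin1 knockdown was examined in the day 10 culture labelled CM by comparing its 2 shBeclin1 libraries with its 2 shNT libraries, 4 of the 16 RNA sequencing libraries of the study. Both groups were derived from ES-E14TG2a, a mouse embryonic stem cell line, carry the genotype label WT and were sampled at day 10 of differentiation towards the cardiac lineage. The shBeclin1 cells carry a short hairpin RNA against Beclin1, and the shNT cells carry the control hairpin of that name. A parallel day 10 culture is labelled CM without GF, and the same hairpins were sampled at day 0 as stem cells and at day 4 as embryoid bodies, 2 libraries per group in each case. The labels do not spell out GF, do not say whether the 2 libraries of a group came from separate cultures, and name no second hairpin or rescue. The p-values rest on the spread between libraries of the same group, shared over all 16 libraries of the study, and that spread may be technical. Loss of Beclin1 therefore cannot be told apart from another effect of the hairpin. The stated purpose of the series is to find the molecular basis by which Beclin1 knockdown enhances cardiomyocyte differentiation, and its title names Wnt and BMP signalling.

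Beclin1, encoded by Becn1, is a subunit of the class III phosphatidylinositol 3-kinase complexes that make the lipid needed for autophagosome formation and endosome traffic. Heart muscle arises from mesoderm that leaves the primitive streak. Wnt and BMP signals act in that path, GATA, HAND, NKX and T-box transcription factors specify the cardiac progenitors, and the progenitors then switch on the proteins of the sarcomere, the contractile unit of the myofibril.

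Becn1 was read at 59.7 and 58.2 CPM in shNT and 36.9 and 36.3 CPM in shBeclin1 libraries. CPM are read counts scaled to library size with TMM, the trimmed mean of M-values, and ± after a log2 fold is its standard error. The groups did not overlap, and Becn1 was lower in shBeclin1 cells (log2 fold -0.69 ± 0.08, adjusted p = 1.77e-09). It lies at chr11:101285952-101302286 in GRCm38, and 43.9% of its exon bases overlap Cntd1 on the other strand, so that its counts can hold reads of that neighbour. The corresponding log2 fold was -0.50 in the culture without GF, -1.005 at day 4 and -1.20 at day 0. The 4 libraries held 15574140 to 21422980 counts, mitochondrial genes took 1.62 to 1.81% of them and ribosomal protein genes 6.69 and 6.87% in shNT against 5.66 and 6.26% in shBeclin1 libraries. All 4 are labelled mouse cardiomyocyte with the tissue heart, but they come from a stem cell culture. Many defining cardiomyocyte transcripts, among them Mybpc3, Tnnt2, Myl7 and Myl2, were near 0 in both shNT libraries, as the next results show. Myh7 and Actc1 were detected there, at far lower levels than with knockdown. The shNT culture is therefore called here by its hairpin and not as cardiomyocytes.

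Of 19141 tested genes, 3683 rose (19.2%) and 3663 fell (19.1%) with knockdown at an adjusted p under 0.05, and 8640 had an unadjusted p under 0.05. At least 2-fold rises numbered 1200 (6.27%) and at least 2-fold falls 1674 (8.75%). The median log2 fold of all tested genes was -0.02. The shares of 19.2% and 19.1% are the background for each count of list members given below. Rises made up 50.1% of the calls with TMM scaling and 36.7% with total counts as the scaling, a change that shifts the median of all genes by -0.091 on the log2 scale.

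Genes of the sarcomere rose together. Of 29 tested sarcomere genes 28 rose and none fell, at a median log2 fold of 5.99, and 1 further gene of the list, Myoz2, was too low to be tested. The summed level of the list was 571 and 636 CPM in the shNT libraries and 9090 and 8650 CPM in the shBeclin1 libraries. Most of the shNT sum was Tpm1, described below. In bulk RNA, fewer cells of a type and less RNA of that type per cell cannot be told apart, and this holds for every cell type gene described here. Mypn, the gene of the Z-disc protein myopalladin, was the 1 tested member without a call, at 0.219 and 0.240 CPM in shNT and 0 and 0.527 CPM in shBeclin1 libraries (adjusted p = 0.840).

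Thick filament and titin genes rose from different shNT levels. Mybpc3, which encodes cardiac myosin-binding protein C, was at 0.0876 and 0.240 CPM in shNT and 229.7 and 217 CPM in shBeclin1 libraries (log2 fold 10.45 ± 0.63, adjusted p = 1.02e-06). Both shNT values rest on few reads and both shBeclin1 values are far above them. Myh6, the alpha myosin heavy chain gene, was at 3.59 and 3.73 CPM in shNT and 877 and 742 CPM in shBeclin1 libraries (log2 fold 7.79 ± 0.50, adjusted p = 1.77e-06). Myh7, the beta myosin heavy chain gene, was already detected in shNT cells, at 26.1 and 29.7 CPM in shNT and 994 and 879.6 CPM in shBeclin1 libraries (log2 fold 5.08 ± 0.33, adjusted p = 1.96e-06). For each of these genes the shBeclin1 libraries stood close together and apart from the shNT libraries. Per kilobase of exon, the shBeclin1 means of the heavy chains were alike in size, 120 ± 14.2 CPM per kb for Myh6 and 109 ± 9.41 CPM per kb for Myh7 (SD, n = 2). That likeness depends on the exon lengths used, 6726 bases for Myh6 and 8616 for Myh7, which cover all annotated exons. Myh6 shares 15.5% of its 75-base windows with other genes, mainly Myh7, and Myh7 shares 15.3%, mainly with Myh6. Their levels are therefore not fully separate. Ttn, which encodes the giant elastic protein titin, was at 1.79 and 1.20 CPM in shNT and 453 and 388 CPM in shBeclin1 libraries (log2 fold 8.08 ± 0.48, adjusted p = 9.10e-07).

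Myosin light chain genes of both chamber types rose. Myl7, the regulatory light chain gene of atrial and early heart muscle, was at 1.23 and 0.961 CPM in shNT and 582 and 625 CPM in shBeclin1 libraries (log2 fold 9.07 ± 0.31, adjusted p = 9.06e-09). Myl2, its ventricular counterpart, had 1 count in all in the shNT libraries and was at 48.7 and 46.8 CPM in the shBeclin1 libraries, a ratio of 1880 (counting interval 338 to 74500). Per kilobase of exon, Myl7 stood at 1020 ± 50.5 and Myl2 at 24.5 ± 0.694 CPM per kb in shBeclin1 cells (SD, n = 2). The level of Myl7 was thus above that of Myl2 in both libraries. Myl4, the atrial essential light chain gene, was at 3.28 and 2.76 CPM in shNT and 384 and 417 CPM in shBeclin1 libraries (log2 fold 7.03 ± 0.34, adjusted p = 2.15e-07), and the ventricular Myl3 was at 0.219 and 0.661 CPM in shNT and 90.6 and 84.4 CPM in shBeclin1 libraries.

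Thin filament and Z-disc genes followed the same pattern with different starting levels. Tnnt2, the cardiac troponin T gene, was at 0.744 and 1.80 CPM in shNT and 823 and 757 CPM in shBeclin1 libraries (log2 fold 9.36 ± 0.41, adjusted p = 9.36e-08). Actc1, the cardiac actin gene, was at 18.1 and 22.2 CPM in shNT and 1293 and 1237 CPM in shBeclin1 libraries (log2 fold 5.98 ± 0.35, adjusted p = 1.23e-05). Tpm1, a tropomyosin gene used by many cell types, was well expressed in shNT cells, at 459 and 499.8 CPM in shNT and 1255 and 1295 CPM in shBeclin1 libraries (log2 fold 1.41 ± 0.07, adjusted p = 5.46e-20). The fold was thus smallest where the shNT level was highest among these genes. Tnni1, the troponin I gene of slow and fetal muscle, was at 1.05 and 2.22 CPM in shNT and 247 and 243 CPM in shBeclin1 libraries, while Tnni3, the adult cardiac form, was at 3.15 and 2.52 CPM in shNT and 14.3 and 12 CPM in shBeclin1 libraries (log2 fold 2.19 ± 0.27, adjusted p = 5.53e-06). In shBeclin1 cells Tnni1 reached 68.1 ± 0.793 and Tnni3 6.37 ± 0.786 CPM per kb of exon. Tcap, the gene of the Z-disc protein telethonin, had no count in either shNT library and 0.644 and 0.761 CPM in the shBeclin1 libraries, at least 9.28-fold higher against a floor of 3 counts over the shNT group. The call of Csrp3, at 30.2 and 30.8 CPM in shBeclin1 cells, ended with DESeq2 (adjusted p = 0.289). That of Myom2 was lost when shNT replicate 1 was left out (adjusted p = 0.263) or when shBeclin1 replicate 1 was (adjusted p = 0.216).

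**Figure D1:**
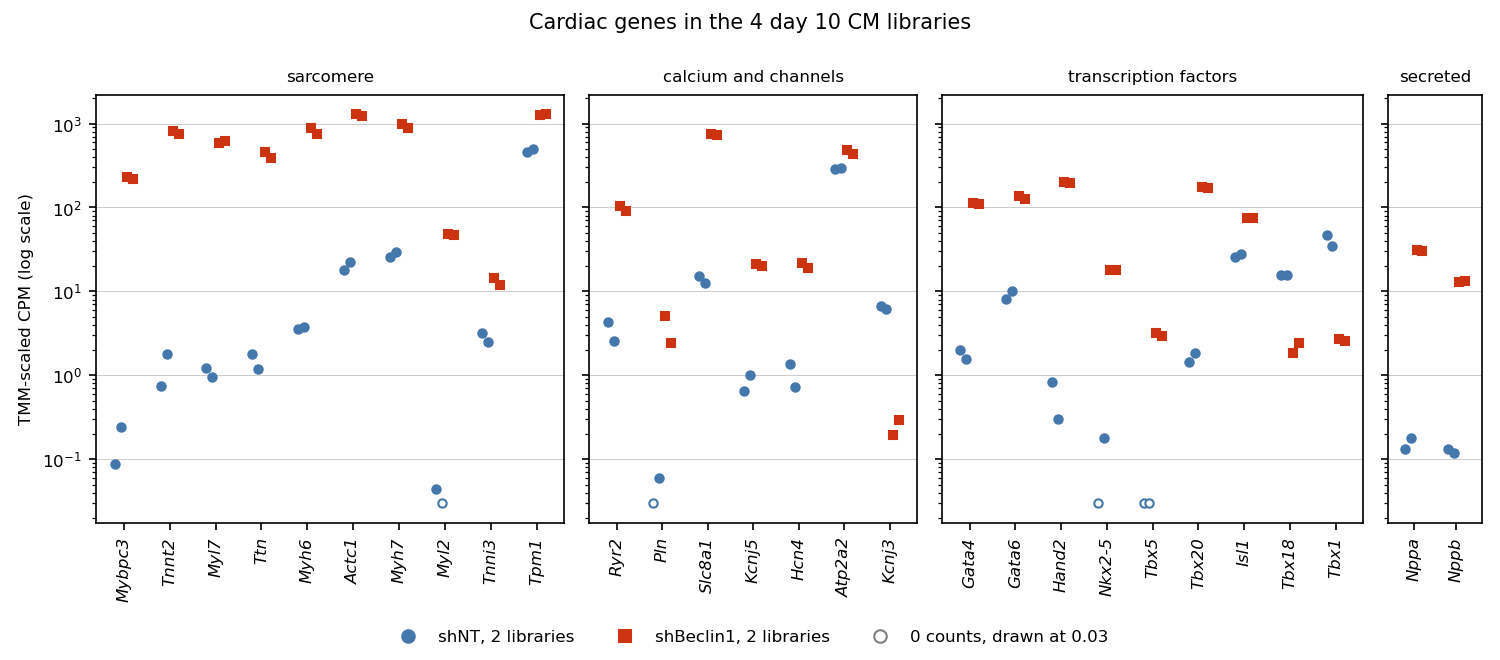
TMM-scaled CPM on a log axis for cardiac genes in the 2 shNT libraries (blue circles) and the 2 shBeclin1 libraries (red squares) of the day 10 CM culture; open symbols are counts of 0, drawn at 0.03. The groups do not overlap for any gene shown, and Kcnj3, Tbx18 and Tbx1 are the ones that lie lower in shBeclin1 libraries.

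The stretches before the start of 5 of these genes are shown because the genes move together and hold letters that muscle transcription factors are known to bind. Each line is the 250 bases before the annotated start in RefSeq (GRCm38.p6), 5′ to 3′ on the strand of the gene, in lower case with motif matches in capitals. Capitals mark a MEF2 box in Mybpc3 (chr2:91117894-91118143, plus strand) and Ttn (chr2:76982548-76982797, minus strand), a CArG box in Myl7 (chr11:5898783-5899032, minus strand), Actc1 (chr2:114052876-114053125, minus strand) and Myl3 (chr9:110763428-110763677, plus strand), and the M-CAT letters CATTCC on either strand in Myl7 and Myl3. No 2 motifs overlap in these windows.
Mybpc3: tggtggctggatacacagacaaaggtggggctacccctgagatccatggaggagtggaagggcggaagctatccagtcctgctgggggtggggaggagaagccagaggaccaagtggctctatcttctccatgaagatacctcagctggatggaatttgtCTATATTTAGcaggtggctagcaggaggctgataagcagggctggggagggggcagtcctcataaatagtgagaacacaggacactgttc
Ttn: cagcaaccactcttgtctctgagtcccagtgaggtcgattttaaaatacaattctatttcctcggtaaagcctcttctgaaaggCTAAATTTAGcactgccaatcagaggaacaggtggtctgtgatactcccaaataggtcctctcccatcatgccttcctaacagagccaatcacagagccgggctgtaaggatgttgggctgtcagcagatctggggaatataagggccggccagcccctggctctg
Myl7: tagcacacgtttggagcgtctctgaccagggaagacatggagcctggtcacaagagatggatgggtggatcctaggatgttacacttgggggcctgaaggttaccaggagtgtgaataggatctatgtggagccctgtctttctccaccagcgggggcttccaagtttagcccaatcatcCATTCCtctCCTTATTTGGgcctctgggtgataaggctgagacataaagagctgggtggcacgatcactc
Actc1: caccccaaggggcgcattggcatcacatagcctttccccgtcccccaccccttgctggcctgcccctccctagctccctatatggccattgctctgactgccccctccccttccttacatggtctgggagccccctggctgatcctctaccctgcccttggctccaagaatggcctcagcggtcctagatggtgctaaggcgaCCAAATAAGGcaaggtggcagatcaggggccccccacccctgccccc
Myl3: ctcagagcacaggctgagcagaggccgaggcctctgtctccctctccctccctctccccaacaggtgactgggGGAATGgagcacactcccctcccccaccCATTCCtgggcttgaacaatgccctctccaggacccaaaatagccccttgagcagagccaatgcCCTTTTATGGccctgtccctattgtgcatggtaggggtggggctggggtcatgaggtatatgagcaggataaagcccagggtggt
The CArG box is the site of serum response factor, the MEF2 box that of the MEF2 factors, M-CAT that of the TEAD factors and AGATAA a site of the GATA factors. Starts were found for 23 of the 29 sarcomere genes, in 32 windows, and for 12924 of all tested genes, in 16491 windows. Searched on both strands, a CArG box was present in 21.9% of the sarcomere windows and 1.26% of all windows. The MEF2 box was in 6.25% against 0.443%, CATTCC in 31.2% against 11.2% and AGATAA in 21.9% against 6.43%. These sarcomere shares rest on few windows. The MEF2 box was in 2 of the 32, those of Mybpc3 and Ttn shown above, and Ldb3 gave 2 of the 7 windows with a CArG box. In the 23 windows of 18 calcium handling and channel genes the shares were 0% for the CArG box, 0% for the MEF2 box, 8.7% for CATTCC and 17.4% for AGATAA. In the 24 windows of cardiac transcription factor genes they were 8.33%, 0%, 12.5% and 4.17% in the same order, and in the 15 windows of smooth muscle and pericyte genes 6.67%, 6.67%, 33.3% and 6.67%. A match is a description of these letters and not evidence of binding.

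Genes of calcium handling and excitation rose in 20 of 28 tested cases, 3 fell and 5 were not called, at a median log2 fold of 2.03. Ryr2, the calcium release channel of the sarcoplasmic reticulum, was at 4.38 and 2.58 CPM in shNT and 104 and 91.9 CPM in shBeclin1 libraries (log2 fold 4.76 ± 0.42, adjusted p = 1.66e-05). Slc8a1, the sodium-calcium exchanger, was at 15.4 and 12.7 CPM in shNT and 755 and 724 CPM in shBeclin1 libraries (log2 fold 5.70 ± 0.34, adjusted p = 9.92e-07). Trdn, the gene of the junctional protein triadin, was at 0.0438 and 0 CPM in shNT and 7.21 and 7.32 CPM in shBeclin1 libraries. All 3 were higher in both shBeclin1 libraries than in either shNT library. Popdc2, a cyclic AMP-binding membrane protein of striated muscle, was at 1.93 and 2.40 CPM in shNT and 117 and 123 CPM in shBeclin1 libraries (log2 fold 5.81 ± 0.15, adjusted p = 2.97e-25). Pln, which encodes the calcium pump inhibitor phospholamban, was lower in level, at 0 and 0.0601 CPM in shNT and 5.08 and 2.46 CPM in shBeclin1 libraries, a ratio of 146 (counting interval 25.8 to 5830). Atp2a2, the pump itself, was already well expressed without knockdown, at 289 and 299 CPM in shNT and 482 and 435 CPM in shBeclin1 libraries (log2 fold 0.64 ± 0.16, adjusted p = 0.0127). That call ended in 5 alternatives. The adjusted p was 0.653 against a fold of 1.5, 0.101 in the 8 day 10 libraries alone, 0.0779 when shBeclin1 replicate 1 was left out, and 0.0928 or 0.0563 when shNT replicate 1 or 2 was left out. Of the exon bases of Pln, 64.7% overlap an entry on the other strand.

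Ion channel genes went both ways. Hcn4, the pacemaker channel gene, was at 1.36 and 0.721 CPM in shNT and 21.6 and 19.1 CPM in shBeclin1 libraries (log2 fold 4.22 ± 0.50, adjusted p = 0.000115). Cacna1c, the pore of the L-type calcium channel, was at 19.1 and 18.1 CPM in shNT and 109.9 and 92.05 CPM in shBeclin1 libraries (log2 fold 2.43 ± 0.11, adjusted p = 5.37e-16). The partners of the acetylcholine-gated potassium channel moved apart. Kcnj5 rose, at 0.657 and 1.02 CPM in shNT and 21.3 and 20.3 CPM in shBeclin1 libraries (log2 fold 4.66 ± 0.49, adjusted p = 5.95e-05), and Kcnj3 fell, at 6.74 and 6.13 CPM in shNT and 0.193 and 0.293 CPM in shBeclin1 libraries (log2 fold -4.68 ± 0.32, adjusted p = 5.51e-15). Kcnj2, an inward rectifier gene, was at 24.8 and 28.4 CPM in shNT and 7.14 and 7.43 CPM in shBeclin1 libraries (log2 fold -1.86 ± 0.14, adjusted p = 6.11e-14). Gja1, which encodes the gap junction protein connexin 43, was at 189 and 195 CPM in shNT and 137 and 135 CPM in shBeclin1 libraries (log2 fold -0.50 ± 0.06, adjusted p = 2.62e-08). Among the genes without a call was Casq2, the gene of the calcium store protein calsequestrin, at 0.525 and 0.601 CPM in shNT and 0.708 and 0.293 CPM in shBeclin1 libraries (adjusted p = 0.845).

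Cardiac transcription factor genes rose in 21 of 28 cases and fell in 6, at a median log2 fold of 1.85. Gata4, a zinc finger regulator of heart muscle genes, was at 2.01 and 1.56 CPM in shNT and 112 and 109.7 CPM in shBeclin1 libraries (log2 fold 5.92 ± 0.13, adjusted p = 3.31e-30). Its relative Gata5 was at 0.0438 and 0.180 CPM in shNT and 66.8 and 60.2 CPM in shBeclin1 libraries (log2 fold 9.19 ± 0.24, adjusted p = 8.95e-26), and Gata6 was at 8.23 and 10.1 CPM in shNT and 138 and 127 CPM in shBeclin1 libraries (log2 fold 3.87 ± 0.09, adjusted p = 1.27e-28). All 3 GATA genes were thus higher in both shBeclin1 libraries. Hand2, a basic helix-loop-helix factor of the ventricles and outflow tract, was at 0.832 and 0.300 CPM in shNT and 199.6 and 195 CPM in shBeclin1 libraries (log2 fold 8.33 ± 0.15, adjusted p = 1.40e-29). Hand2os1, the divergent transcript beside it, was at 0.0876 and 0.180 CPM in shNT and 130 and 118 CPM in shBeclin1 libraries (log2 fold 9.85 ± 0.18, adjusted p = 9.85e-31), and 19.6% of the exon bases of Hand2 overlap Hand2os1 on the other strand. Without a stated strand setting their reads cannot be told apart in the overlap. Nkx2-5, the homeobox factor of the cardiac lineage, was at 0 and 0.180 CPM in shNT and 17.8 and 17.9 CPM in shBeclin1 libraries, a ratio of 235 (counting interval 80 to 1140). Tbx5, a T-box factor of the first heart field, had no count in shNT libraries and 3.22 and 2.93 CPM with knockdown, at least 40.3-fold higher. Both start from few or no shNT counts, so the sizes of these ratios are loosely bounded.

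Tbx20, a T-box factor of heart muscle, was at 1.45 and 1.86 CPM in shNT and 173 and 172 CPM in shBeclin1 libraries (log2 fold 6.72 ± 0.33, adjusted p = 1.12e-07). Myocd, the gene of the serum response factor partner myocardin, was at 1.49 and 1.68 CPM in shNT and 63.5 and 54.7 CPM in shBeclin1 libraries (log2 fold 5.22 ± 0.18, adjusted p = 6.29e-23). Mef2c was present in shNT cells and higher with knockdown, at 79.2 and 80.4 CPM in shNT and 353 and 353 CPM in shBeclin1 libraries (log2 fold 2.15 ± 0.08, adjusted p = 4.56e-18). Isl1, a marker of second heart field progenitors, was at 25.6 and 28.2 CPM in shNT and 74.9 and 74.7 CPM in shBeclin1 libraries (log2 fold 1.48 ± 0.08, adjusted p = 1.89e-17). Factors of other cardiac territories fell. Tbx1, of the pharyngeal part of the second heart field, was at 46.4 and 34.5 CPM in shNT and 2.70 and 2.58 CPM in shBeclin1 libraries (log2 fold -3.94 ± 0.29, adjusted p = 4.42e-08). Tbx18, of the sinus horn and epicardium, was at 15.5 and 15.6 CPM in shNT and 1.87 and 2.46 CPM in shBeclin1 libraries (log2 fold -2.83 ± 0.15, adjusted p = 3.21e-18). Shox2, of the sinus node, was at 4.07 and 4.33 CPM in shNT and 0.515 and 0.176 CPM in shBeclin1 libraries (log2 fold -3.60 ± 0.50, adjusted p = 5.18e-06). The other genes that fell were Nr2f2, Zfpm2 and Hopx, by 1.21, 1.21 and 0.60 on the log2 scale.

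Among the 12 largest rises under the rule for named genes were 3 more with little signal in shNT cells. Trim55, a muscle RING finger gene, was at 0.0876 and 0.300 CPM in shNT and 112 and 108 CPM in shBeclin1 libraries (log2 fold 9.21 ± 0.72, adjusted p = 0.000183). Mylk3, the cardiac myosin light chain kinase gene, was at 0.481 and 0.420 CPM in shNT and 101 and 101 CPM in shBeclin1 libraries (log2 fold 7.77 ± 0.17, adjusted p = 3.31e-30). The entry Hdnr was at 0.350 and 0.240 CPM in shNT and 78.7 and 79.9 CPM in shBeclin1 libraries (log2 fold 7.99 ± 0.18, adjusted p = 1.27e-28). Of 14 genes of cardiac hormones, ligands and receptors 9 rose and 2 fell, and the falls were lost in several alternatives. Nppa, which encodes atrial natriuretic peptide, was at 0.131 and 0.180 CPM in shNT and 31.5 and 30.1 CPM in shBeclin1 libraries (log2 fold 7.59 ± 0.31, adjusted p = 8.16e-22), and 61.5% of its exon bases overlap an entry on the other strand. Nppb, the B-type peptide gene, was at 0.131 and 0.120 CPM in shNT and 13 and 13.3 CPM in shBeclin1 libraries (log2 fold 6.62 ± 0.39, adjusted p = 6.44e-17). Of 22 genes of heart-type metabolism 16 rose, at a median log2 fold of 0.83, and 2 fell. The falls numbered 1 with DESeq2 and when shNT replicate 2 or either shBeclin1 replicate was left out. Lpl, the lipoprotein lipase gene, was at 40.5 and 42.4 CPM in shNT and 176 and 181 CPM in shBeclin1 libraries (log2 fold 2.11 ± 0.08, adjusted p = 8.38e-21). Ppargc1a, a coactivator of mitochondrial genes, was at 2.15 and 1.92 CPM in shNT and 12.7 and 12.2 CPM in shBeclin1 libraries (log2 fold 2.60 ± 0.20, adjusted p = 3.18e-13). Cd36, the fatty acid transporter gene, went the other way, at 192 and 207 CPM in shNT and 5.15 and 4.45 CPM in shBeclin1 libraries (log2 fold -5.38 ± 0.14, adjusted p = 6.87e-22).

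Marker genes of other cell types moved in the same libraries, and their part in the cardiac results was not tested. Smooth muscle and pericyte genes rose in 12 of 18 cases and fell in 3, with a summed level of 1140 and 1200 CPM in shNT and 4040 and 4200 CPM in shBeclin1 libraries. None of the 18 was at 0 in either group. Acta2, smooth muscle actin, which early heart muscle also makes, was at 108 and 129.8 CPM in shNT and 1810 and 1892 CPM in shBeclin1 libraries (log2 fold 3.97 ± 0.11, adjusted p = 7.07e-15). Synpo2, an actin-bundling protein of muscle, was at 6.57 and 9.55 CPM in shNT and 301 and 278 CPM in shBeclin1 libraries (log2 fold 5.20 ± 0.10, adjusted p = 2.21e-29). Rgs5, a pericyte gene, was at 9.37 and 7.93 CPM in shNT and 166 and 179 CPM in shBeclin1 libraries (log2 fold 4.30 ± 0.11, adjusted p = 9.05e-24). Mylk, Hhip and Pdgfrb of the same list were named after their values were seen. Mylk had means of 0.65 CPM per kb of exon in shNT and 0.0774 in shBeclin1 cells, and Hhip 9.75 and 1.71. Pdgfrb had alike means of 21.6 and 22.2 CPM per kb in the same order. Red blood cell genes rose in 12 of 16 tested cases and none fell, from a summed 70.9 and 62 CPM to 231 and 281 CPM, with Hbb-bt at 0 in shNT libraries. Hbb-bh1, an embryonic globin gene, was at 16.9 and 15.7 CPM in shNT and 103 and 125 CPM in shBeclin1 libraries (log2 fold 2.80 ± 0.25, adjusted p = 0.000263). Embryonic globin therefore differed in the same direction as the cardiac genes, at a smaller fold.

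Fibroblast and matrix genes split, with 12 rises and 11 falls among 26 and a median of -0.02. Fbn1, the fibrillin gene, was at 223 and 233 CPM in shNT and 675 and 659 CPM in shBeclin1 libraries (log2 fold 1.55 ± 0.07, adjusted p = 4.57e-18). Ddr2, a collagen receptor gene, was at 97.6 and 97.5 CPM in shNT and 6.57 and 6.20 CPM in shBeclin1 libraries (log2 fold -3.93 ± 0.11, adjusted p = 3.64e-26). Fn1, fibronectin, had the highest level of the list and was not called, at 1894 and 1983 CPM in shNT and 1856 and 1903 CPM in shBeclin1 libraries. Epicardial and mesothelial genes rose in 7 of 14 tested cases and fell in 5. Upk1b was at 1.05 and 1.26 CPM in shNT and 14.9 and 15.7 CPM in shBeclin1 libraries (log2 fold 3.74 ± 0.19, adjusted p = 4.04e-18). Sema3d, which encodes a guidance ligand, was at 48.3 and 49.6 CPM in shNT and 1.35 and 1.46 CPM in shBeclin1 libraries (log2 fold -5.11 ± 0.15, adjusted p = 4.26e-26).

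Endothelial genes did not rise as a list. Of 30, 6 rose, 14 fell and 10 were not called, at a median log2 fold of -0.16 and a summed level of 1960 and 1900 against 1840 and 1980 CPM, with no member at 0. Cdh5, the endothelial cadherin gene, was at 240.5 and 236 CPM in shNT and 251 and 265 CPM in shBeclin1 libraries and was not called (adjusted p = 0.233). Aplnr, the apelin receptor gene, was at 67.9 and 60.3 CPM in shNT and 24.2 and 26.1 CPM in shBeclin1 libraries (log2 fold -1.35 ± 0.08, adjusted p = 1.00e-16). Flt4, the lymphatic VEGF receptor, was at 69.04 and 57.3 CPM in shNT and 24.01 and 27.4 CPM in shBeclin1 libraries (log2 fold -1.30 ± 0.11, adjusted p = 9.80e-13). Lyve1, the hyaluronan receptor of lymphatic and embryonic vessels, was at 8.93 and 10.5 CPM in shNT and 0.0644 and 0.234 CPM in shBeclin1 libraries (log2 fold -5.92 ± 0.41, adjusted p = 7.28e-14). Plvap, of fenestrated vessels, rose, at 54.4 and 48.7 CPM in shNT and 98.5 and 115 CPM in shBeclin1 libraries (log2 fold 1.04 ± 0.11, adjusted p = 1.37e-09). Of 12 tested macrophage and leukocyte genes 7 rose and 1 fell, a count of rises that was 3 with DESeq2 and 4 without shNT replicate 2. Their summed level was 49 and 51.7 against 58.2 and 64.6 CPM, and C1qa and Fcgr1 were at 0 in both groups.

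The largest falls included regulators of the streak, notochord and endoderm. T, which encodes the streak and notochord factor brachyury, was at 260.4 and 258 CPM in shNT and 0.451 and 0.410 CPM in shBeclin1 libraries (log2 fold -9.21 ± 0.14, adjusted p = 3.30e-34), 594-fold lower. It lies at chr17:8434423-8442496. Shh, the hedgehog ligand of notochord and floor plate, was at 176 and 166 CPM in shNT and 1.54 and 1.93 CPM in shBeclin1 libraries (log2 fold -6.61 ± 0.13, adjusted p = 2.21e-29). Foxa1, a forkhead factor of endoderm, was at 57.8 and 54.3 CPM in shNT and 0.579 and 0.644 CPM in shBeclin1 libraries (log2 fold -6.50 ± 0.19, adjusted p = 3.47e-26). In each case both shNT libraries had over 50 CPM and both shBeclin1 libraries under 2. Six2, a homeobox factor of kidney progenitors, was at 40.5 and 32.9 CPM in shNT and 0.451 and 0.234 CPM in shBeclin1 libraries (log2 fold -6.74 ± 0.39, adjusted p = 7.04e-10). Car3, a carbonic anhydrase gene, was at 209 and 223 CPM in shNT and 0.901 and 0.936 CPM in shBeclin1 libraries (log2 fold -7.87 ± 0.16, adjusted p = 7.63e-29). Lepr, the leptin receptor gene, was at 123 and 106 CPM in shNT and 1.80 and 1.70 CPM in shBeclin1 libraries (log2 fold -6.03 ± 0.14, adjusted p = 2.21e-29). Scara5, Adgrv1, Moxd1, Arg1, Cd36 and Sema3d completed the 12, with log2 folds from -6.26 to -5.11.

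Pluripotency genes fell in 16 of 20 cases and rose in 2, at a median log2 fold of -1.20. Pou5f1, the core pluripotency factor OCT4, was at 36.5 and 35.4 CPM in shNT and 12.4 and 12.5 CPM in shBeclin1 libraries (log2 fold -1.53 ± 0.09, adjusted p = 2.04e-16). Sox2, shared with neural progenitors, was at 58.2 and 48.9 CPM in shNT and 8.62 and 9.30 CPM in shBeclin1 libraries (log2 fold -2.58 ± 0.10, adjusted p = 8.66e-23). The RNA-binding protein gene Lin28a was at 222 and 239.6 CPM in shNT and 98.3 and 100.5 CPM in shBeclin1 libraries (log2 fold -1.21 ± 0.06, adjusted p = 3.00e-18). Transcripts of this list were thus still read in day 10 cells of either hairpin. Tdgf1, the Nodal coreceptor gene, rose, at 24.2 and 24.3 CPM in shNT and 98.9 and 105 CPM in shBeclin1 libraries (log2 fold 2.07 ± 0.08, adjusted p = 3.23e-23). Neural progenitor and neuron genes fell in 22 of 29 tested cases and rose in 1 (none when shNT replicate 1 was left out), at a median of -2.05. Map2, a dendrite cytoskeleton gene, was at 28.1 and 26.2 CPM in shNT and 4.25 and 4.27 CPM in shBeclin1 libraries (log2 fold -2.67 ± 0.12, adjusted p = 1.40e-20). Elavl4, a neuronal RNA-binding protein gene, was at 27.1 and 30.9 CPM in shNT and 6.82 and 7.08 CPM in shBeclin1 libraries (log2 fold -2.06 ± 0.11, adjusted p = 1.09e-17). Nes, the progenitor filament nestin, was not called, at 86.6 and 89.99 CPM in shNT and 93.7 and 95.3 CPM in shBeclin1 libraries. Sox1, an early neural factor named after its values were seen, was at 8.01 and 6.79 CPM in shNT libraries and had no count in shBeclin1 libraries, at least 81.5-fold lower.

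Epithelial genes fell in 16 of 17 tested cases and none rose, at a median of -2.13. Cdh1, E-cadherin, was at 136 and 142 CPM in shNT and 26.8 and 19.5 CPM in shBeclin1 libraries (log2 fold -2.59 ± 0.11, adjusted p = 7.91e-15). Epcam, an epithelial adhesion gene, was at 77 and 87.3 CPM in shNT and 18.8 and 16.7 CPM in shBeclin1 libraries (log2 fold -2.21 ± 0.10, adjusted p = 7.02e-16). Esrp1, an epithelial splicing regulator, was at 30.1 and 29.9 CPM in shNT and 6.12 and 3.22 CPM in shBeclin1 libraries (log2 fold -2.70 ± 0.14, adjusted p = 6.60e-18). Both libraries of each hairpin lay on their own side for these genes. The keratin gene Krt8, not called at 188 and 188 CPM in shNT and 178 and 180.2 CPM in shBeclin1 libraries, shares 22% of its 75-base windows with another gene. Endoderm and liver genes fell in 9 of 18 tested cases and rose in 2, with Foxa2 at 13.7 and 15.4 CPM in shNT and 0.386 and 0.0585 CPM in shBeclin1 libraries (log2 fold -6.03 ± 0.30, adjusted p = 1.33e-17). Cartilage and bone genes split, with 6 rises and 6 falls among 14. Col2a1, the cartilage collagen, was at 506 and 459 CPM in shNT and 46.5 and 42.2 CPM in shBeclin1 libraries (log2 fold -3.44 ± 0.15, adjusted p = 2.16e-09). Col9a2 was at 21.6 and 19.9 CPM in shNT and 88.1 and 82.7 CPM in shBeclin1 libraries (log2 fold 2.04 ± 0.11, adjusted p = 6.59e-17).

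**Figure D2:**
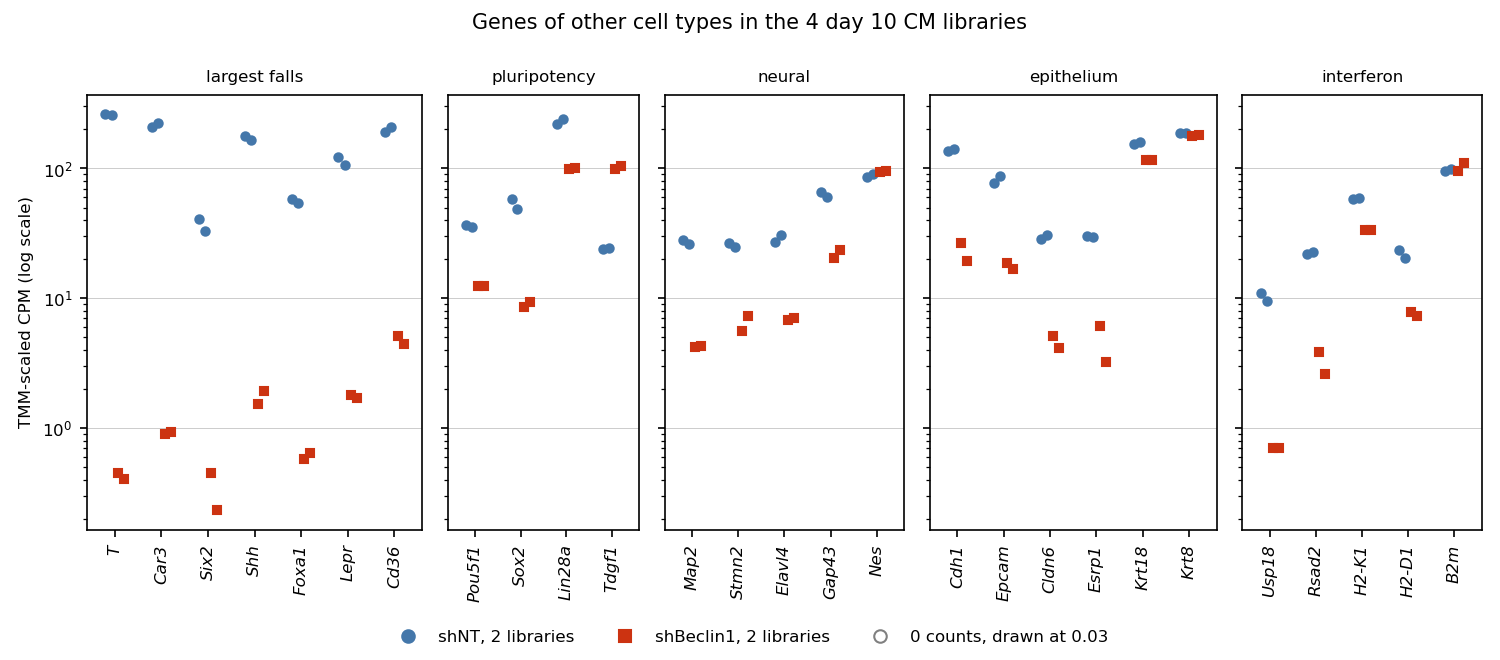
TMM-scaled CPM on a log axis for genes of the largest falls and of 4 other lists in the 2 shNT libraries (blue circles) and the 2 shBeclin1 libraries (red squares). T, Six2, Shh and Foxa1 are under 2 CPM in both shBeclin1 libraries, Tdgf1 is higher there, and Nes, Krt8 and B2m were not called.

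BMP pathway genes rose more often than they fell. BMP ligands bind receptor kinases that phosphorylate SMAD proteins, which switch on ID, MSX and inhibitory SMAD genes. Of 18 tested ligand, receptor and SMAD genes 10 rose and 3 fell, at a median log2 fold of 0.67. The ligand gene Bmp4 was at 19.6 and 19.2 CPM in shNT and 119.8 and 115 CPM in shBeclin1 libraries (log2 fold 2.60 ± 0.10, adjusted p = 2.09e-22), Bmp7 rose by 1.64 and Bmp2 by 1.47 on the log2 scale. The receptor gene Bmpr1a was at 194 and 219.6 CPM in shNT and 459 and 469 CPM in shBeclin1 libraries (log2 fold 1.17 ± 0.07, adjusted p = 7.07e-17). The ligand gene Bmp5 and the receptor gene Bmpr1b, named after their values were seen, were lower with knockdown. Bmp5 had means of 11.8 CPM per kb of exon in shNT and 3.45 in shBeclin1 cells, and Bmpr1b 1.09 and 0.0775. Of 15 target and feedback genes 13 rose and 2 fell, at a median of 2.38. Msx1, a homeobox target, was at 0.350 and 0.300 CPM in shNT and 38.8 and 36.6 CPM in shBeclin1 libraries (log2 fold 6.81 ± 0.26, adjusted p = 1.28e-22). Msx2 was at 0.569 and 0.240 CPM in shNT and 25.1 and 22.6 CPM in shBeclin1 libraries (log2 fold 5.77 ± 0.23, adjusted p = 8.63e-22). Smad6, an inhibitory SMAD gene, was at 5.69 and 6.85 CPM in shNT and 60.2 and 58.4 CPM in shBeclin1 libraries (log2 fold 3.25 ± 0.12, adjusted p = 2.25e-23). Bambi, a decoy receptor gene, was at 16.2 and 15.98 CPM in shNT and 149.9 and 159 CPM in shBeclin1 libraries (log2 fold 3.26 ± 0.09, adjusted p = 1.51e-27). Every one of these targets was higher in both shBeclin1 libraries. The ID genes moved less and not all in the same direction. Id4, named after its values were seen, was lower with knockdown. It was at 4.12 and 4.07 CPM per kb of exon in shNT and 1.97 and 1.73 in shBeclin1 libraries. Id1 was at 46.6 and 50.2 CPM in shNT and 76.2 and 72.6 CPM in shBeclin1 libraries (log2 fold 0.62 ± 0.09, adjusted p = 4.48e-07) and Id2 at 85.8 and 89.6 CPM in shNT and 179 and 172 CPM in shBeclin1 libraries (log2 fold 0.998 ± 0.09, adjusted p = 2.39e-10). Of 13 secreted antagonist genes 7 fell and 3 rose. Nog, the noggin gene, named after its values were seen, was higher with knockdown, with means of 4.55 CPM per kb of exon in shNT and 7.63 in shBeclin1 cells. Fst, the gene of the activin and BMP trap follistatin, was at 40.7 and 38.1 CPM in shNT and 2.38 and 3.22 CPM in shBeclin1 libraries (log2 fold -3.80 ± 0.12, adjusted p = 4.40e-25). Chrd, chordin, was at 9.94 and 8.77 CPM in shNT and 0.644 and 1.05 CPM in shBeclin1 libraries (log2 fold -3.44 ± 0.24, adjusted p = 1.44e-14).

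Wnt pathway genes did not share a direction. Of 32 tested ligand and receptor genes 10 rose and 10 fell, at a median log2 fold of -0.02. Wnt11, a ligand of the non-canonical branch, was at 0.788 and 0.721 CPM in shNT and 30.2 and 27.1 CPM in shBeclin1 libraries (log2 fold 5.23 ± 0.24, adjusted p = 2.90e-20). The receptor gene Fzd7 was at 98.6 and 96.3 CPM in shNT and 248 and 238 CPM in shBeclin1 libraries (log2 fold 1.31 ± 0.06, adjusted p = 1.26e-19). Fzd1 was at 28.5 and 26.7 CPM in shNT and 92.2 and 92.8 CPM in shBeclin1 libraries (log2 fold 1.74 ± 0.09, adjusted p = 1.41e-18) and Fzd5 at 25.3 and 22.5 CPM in shNT and 5.02 and 5.91 CPM in shBeclin1 libraries (log2 fold -2.13 ± 0.12, adjusted p = 9.61e-18). Fzd5 thus went against the other two. Of 19 genes taken as targets or feedback genes of canonical Wnt signalling 5 rose and 8 fell, at a median of -0.29, and 4 fell without shNT replicate 1 and 5 without shBeclin1 replicate 2. Lef1, a target and a nuclear partner of beta-catenin, was at 10.1 and 8.59 CPM in shNT and 38.1 and 34.99 CPM in shBeclin1 libraries (log2 fold 1.95 ± 0.10, adjusted p = 7.24e-19). Ccnd1, the cyclin D1 gene, was at 78.9 and 78.5 CPM in shNT and 116 and 117 CPM in shBeclin1 libraries (log2 fold 0.56 ± 0.07, adjusted p = 6.05e-08). Axin2, a feedback inhibitor named after its values were seen, was at 14.9 and 10.5 CPM in shNT and 10.5 and 9.36 CPM in shBeclin1 libraries (log2 fold -0.38 ± 0.14, adjusted p = 0.0256). The Axin2 call was lost with DESeq2 (adjusted p = 0.0772) and on leaving out shNT replicate 1 (adjusted p = 0.668) or shBeclin1 replicate 2 (adjusted p = 0.204). The target genes with the highest and the lowest fold were Dkk1, itself a secreted Wnt antagonist, at 2.85 and 2.40 CPM in shNT and 38.7 and 42.4 CPM in shBeclin1 libraries (log2 fold 3.93 ± 0.15, adjusted p = 1.96e-22), and T, given above. Among 16 antagonist genes 4 rose and 6 fell. Sfrp1 was at 162 and 158 CPM in shNT and 44.1 and 40.7 CPM in shBeclin1 libraries (log2 fold -1.92 ± 0.07, adjusted p = 2.63e-23). Sostdc1 was at 16.5 and 17.4 CPM in shNT libraries against a single count in shBeclin1 libraries, a ratio of 550 (counting interval 98.4 to 21800) lower.

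**Figure D3:**
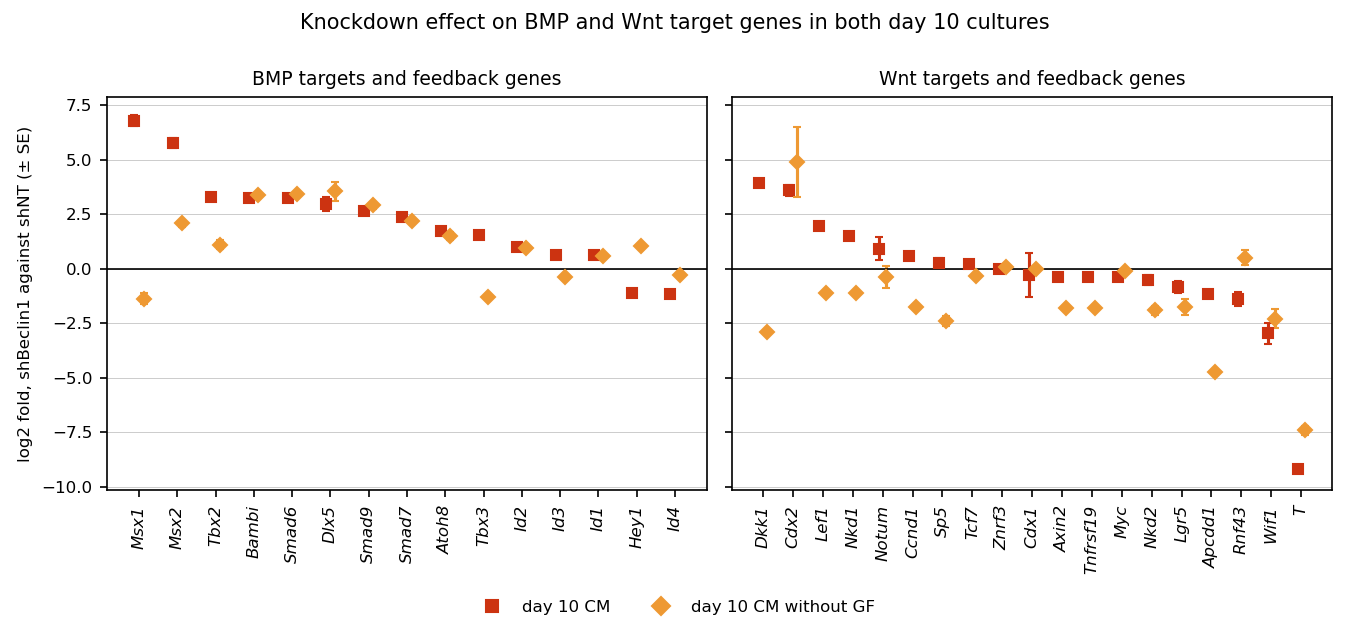
Log2 fold of shBeclin1 against shNT, with its SE, for every tested member of the BMP and Wnt target lists in the day 10 CM culture (red squares) and the day 10 culture without GF (orange diamonds); most error bars are smaller than the symbols. In the CM culture 13 of 15 BMP targets and 5 of 19 Wnt targets rose, and Msx1 and Dkk1 lie on opposite sides of 0 in the cultures.

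Other signalling lists were mixed. Of 21 tested FGF ligand and receptor genes 7 rose and 8 fell. Fgfr1 was at 149 and 150 CPM in shNT and 228 and 229 CPM in shBeclin1 libraries (log2 fold 0.61 ± 0.06, adjusted p = 4.29e-10) and Fgfr2 at 34.3 and 29.2 CPM in shNT and 14.2 and 11 CPM in shBeclin1 libraries (log2 fold -1.35 ± 0.11, adjusted p = 7.44e-13). Of 18 Notch pathway genes 4 rose and 9 fell. The ligand gene Jag1 was at 19.7 and 23.2 CPM in shNT and 73.2 and 68.4 CPM in shBeclin1 libraries (log2 fold 1.73 ± 0.09, adjusted p = 9.93e-19), while the ligand gene Dll1 was at 7.40 and 7.87 CPM in shNT and 1.22 and 1.58 CPM in shBeclin1 libraries (log2 fold -2.43 ± 0.20, adjusted p = 6.99e-13). Hey2, a Notch effector of ventricular muscle and arteries, was at 4.25 and 4.75 CPM in shNT and 35.02 and 39.1 CPM in shBeclin1 libraries (log2 fold 3.05 ± 0.15, adjusted p = 1.21e-19). The effector genes Hey1, Heyl and Hes1 were named after their values were seen. Hey1 and Heyl were lower, with means of 12.6 and 2.43 CPM per kb of exon in shNT and 5.84 and 0.555 in shBeclin1 cells. Hes1 had alike means of 14.6 in shNT and 14.9 in shBeclin1 cells. Of 15 retinoic acid pathway genes 4 rose and 7 fell, and the rises numbered 1 with DESeq2, without shNT replicate 1 and without shBeclin1 replicate 2. Cyp26a1, which encodes an enzyme that degrades retinoic acid, was at 7.09 and 7.15 CPM in shNT and 0.837 and 0.819 CPM in shBeclin1 libraries (log2 fold -3.09 ± 0.24, adjusted p = 1.04e-13). Of 19 genes of the TGF-beta and activin pathway 9 rose and 5 fell, and the falls numbered 2 without shNT replicate 1 and 3 without shBeclin1 replicate 2. Tgfb2, a ligand gene, was at 72.4 and 76.6 CPM in shNT and 269 and 243 CPM in shBeclin1 libraries (log2 fold 1.78 ± 0.07, adjusted p = 1.98e-21). Ltbp1, a latent complex gene, was at 79.1 and 83.3 CPM in shNT and 377 and 362 CPM in shBeclin1 libraries (log2 fold 2.19 ± 0.07, adjusted p = 6.08e-25).

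Hox genes, which give cells their position along the body axis, rose in 24 of 36 tested cases and none fell, at a median log2 fold of 2.28. Their summed level was 54.1 and 49.7 CPM in shNT and 203 and 184 CPM in shBeclin1 libraries. Hoxd8 was at 3.15 and 3.12 CPM in shNT and 40.5 and 38.3 CPM in shBeclin1 libraries (log2 fold 3.65 ± 0.18, adjusted p = 5.71e-19). Hoxd9 was at 0.394 and 0.300 CPM in shNT and 33.4 and 31.3 CPM in shBeclin1 libraries (log2 fold 6.48 ± 0.27, adjusted p = 2.87e-20) and Hoxd10 at 0.0438 and 0.120 CPM in shNT and 6.57 and 9.13 CPM in shBeclin1 libraries, a ratio of 104 (counting interval 35.2 to 508). Every rise named here was present in both shBeclin1 libraries. Hoxd4, at 1.05 and 1.08 CPM in shNT and 13.9 and 10.1 CPM in shBeclin1 libraries, shares 40.6% of its 75-base windows with the entry Gm28230, so its count is uncertain. Of 18 tested streak and early mesoderm genes 5 rose and 2 fell. Cdx2, a caudal factor that acts on Hox genes, was at 1.45 and 1.02 CPM in shNT and 16.03 and 14.9 CPM in shBeclin1 libraries (log2 fold 3.61 ± 0.26, adjusted p = 5.42e-14). Evx1, of the posterior streak, had no count in shNT libraries and 4.18 and 3.39 CPM with knockdown, at least 49.6-fold higher.

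Of 42 core autophagy genes 14 rose and 1, Becn1, fell, at a median log2 fold of 0.15, and none of the changes reached 2-fold. The number of falls was 4 with total counts as the scaling and 2 without shNT replicate 2 or without shBeclin1 replicate 2. Sqstm1, the cargo receptor p62, was at 169 and 178 CPM in shNT and 312 and 316 CPM in shBeclin1 libraries (log2 fold 0.86 ± 0.06, adjusted p = 1.33e-14). Wipi1, a lipid-binding autophagy protein, was at 73.02 and 77.02 CPM in shNT and 118 and 110.2 CPM in shBeclin1 libraries (log2 fold 0.61 ± 0.07, adjusted p = 1.19e-08). Calcoco1 was at 83.9 and 80.5 CPM in shNT and 128 and 133 CPM in shBeclin1 libraries (log2 fold 0.67 ± 0.07, adjusted p = 2.57e-10). Pik3c3, the kinase partner of Beclin1, named after its values were seen, was not called at 57.4 and 56.2 CPM in shNT and 56.3 and 57.8 CPM in shBeclin1 libraries, and Gabarap was not called at 245 and 255 CPM in shNT and 242 and 267 CPM in shBeclin1 libraries. Of 37 tested lysosome genes 11 rose and 7 fell, with 6 rises without shNT replicate 1, 7 with total counts as the scaling and 4 falls without shBeclin1 replicate 1. Over all tested genes 19.2% rose and 19.1% fell, so falls were no more frequent among lysosome genes than elsewhere. Ctsa, the cathepsin A gene, was at 104 and 103 CPM in shNT and 161 and 161 CPM in shBeclin1 libraries (log2 fold 0.63 ± 0.07, adjusted p = 5.59e-09), and Ctsl, the cathepsin L gene, was not called at 479 and 509.5 CPM in shNT and 479 and 514 CPM in shBeclin1 libraries.

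Interferon response genes fell in 13 of 23 tested cases and rose in 1, at a median log2 fold of -0.82. Rsad2, the antiviral protein viperin, was at 21.9 and 22.8 CPM in shNT and 3.86 and 2.63 CPM in shBeclin1 libraries (log2 fold -2.79 ± 0.20, adjusted p = 1.96e-14). Usp18, a feedback protease, was at 10.99 and 9.55 CPM in shNT and 0.708 and 0.702 CPM in shBeclin1 libraries (log2 fold -3.85 ± 0.31, adjusted p = 4.76e-13). The class I antigen presentation gene H2-K1 was at 58.2 and 59.7 CPM in shNT and 33.3 and 33.4 CPM in shBeclin1 libraries (log2 fold -0.82 ± 0.09, adjusted p = 2.01e-09), while its partner B2m was not called at 95.1 and 98.3 CPM in shNT and 95.4 and 109.7 CPM in shBeclin1 libraries. Class I genes share sequence, and H2-D1, at 23.5 and 20.6 CPM in shNT and 7.85 and 7.37 CPM in shBeclin1 libraries, moved the same way. Of 20 p53 target genes 8 rose and 1 fell, or 5 fell with total counts as the scaling. Cdkn1a, the cell cycle inhibitor p21, was at 84.2 and 102 CPM in shNT and 145 and 157 CPM in shBeclin1 libraries (log2 fold 0.70 ± 0.08, adjusted p = 1.61e-08). Gdf15, a stress cytokine gene, was at 0.263 and 0.721 CPM in shNT and 4.76 and 4.92 CPM in shBeclin1 libraries (log2 fold 3.38 ± 0.34, adjusted p = 1.33e-10). Unfolded protein and integrated stress response genes gave 5 rises and 8 falls among 22. The falls numbered 5 without shNT replicate 1 and 4 without either shBeclin1 replicate, and the rises 3 without shNT replicate 1 or shBeclin1 replicate 1. Xbp1, of the unfolded protein response, was at 113 and 108 CPM in shNT and 71.8 and 68.2 CPM in shBeclin1 libraries (log2 fold -0.66 ± 0.07, adjusted p = 4.63e-10).

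Cell cycle genes were close to the same level with either hairpin. Of 33, 4 rose, 2 fell and 27 were not called, at a median log2 fold of 0.04. Total counts as the scaling gave 8 falls and 2 rises, and leaving out the filter gave 7 falls and 2 rises. The falls numbered 7 in the 4 CM libraries alone and in the 12 libraries without those without GF, and 1 with DESeq2. There was 1 fall without shNT replicate 1 or shBeclin1 replicate 2, and 2 rises when either of these or shBeclin1 replicate 1 was left out. Mki67, the proliferation antigen, was at 562 and 580.5 CPM in shNT and 606 and 585 CPM in shBeclin1 libraries (adjusted p = 0.534). Of 25 hypoxia and glycolysis genes 17 rose and 4 fell, at a median of 0.35, and the falls numbered 2 when shNT replicate 2 or shBeclin1 replicate 1 was left out. The hexokinase gene Hk2 was at 143 and 151 CPM in shNT and 292 and 263 CPM in shBeclin1 libraries (log2 fold 0.92 ± 0.07, adjusted p = 1.09e-13) and the lactate dehydrogenase gene Ldha at 1199 and 1188 CPM in shNT and 1695 and 1785 CPM in shBeclin1 libraries (log2 fold 0.54 ± 0.06, adjusted p = 3.92e-09). Car9, a carbonic anhydrase gene of the hypoxia and glycolysis list, was lower with knockdown, with means of 8.46 CPM per kb of exon in shNT and 4.17 in shBeclin1 cells. Imprinted genes, expressed from 1 parental allele, rose in 16 of 22 cases and fell in 3. Dlk1, a growth regulator, was at 36.95 and 34.96 CPM in shNT and 578 and 581 CPM in shBeclin1 libraries (log2 fold 4.01 ± 0.07, adjusted p = 5.68e-32). Igf2r, a receptor that clears IGF2, was at 667 and 711 CPM in shNT and 3245 and 3070 CPM in shBeclin1 libraries (log2 fold 2.20 ± 0.07, adjusted p = 2.49e-25). Peg10 fell, at 2609 and 2495 CPM in shNT and 1386 and 1353 CPM in shBeclin1 libraries (log2 fold -0.90 ± 0.06, adjusted p = 5.17e-15).

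**Figure D4:**
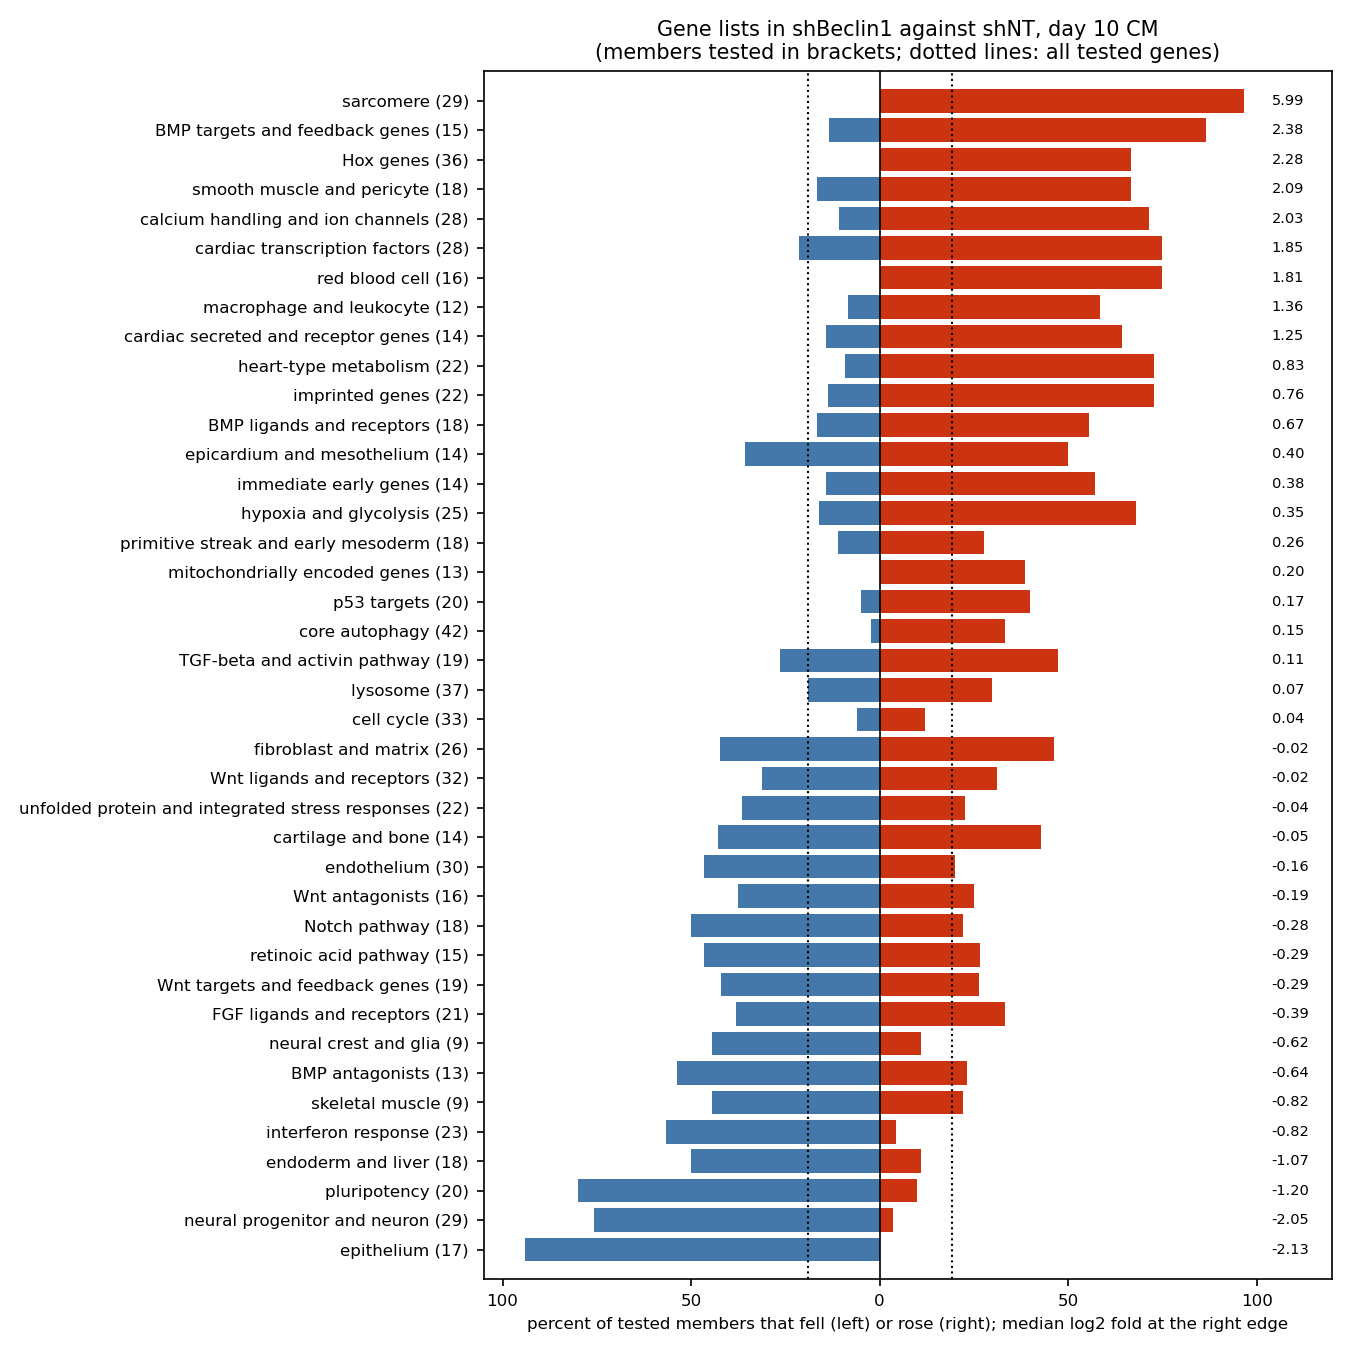
Share of the tested members of each gene list that fell (blue, left) or rose (red, right) with knockdown in the day 10 CM culture, in percent, with the number tested in brackets and the median log2 fold at the right edge. The dotted lines are the shares over all tested genes, 19.1% fell and 19.2% rose; sarcomere genes lie at one end with a median of 5.99 and epithelial genes at the other with -2.13.

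The knockdown effect was set against the other times and the culture without GF, with the difference of effects tested for each gene. In the culture without GF 27.3% of genes rose and 27.3% fell, at day 4 10.7% rose and 10.1% fell, and at day 0 5.79% rose and 7.55% fell. The effect in the CM culture differed from that without GF for 6584 genes (34.4%), from that at day 4 for 4993 (26.1%) and from that at day 0 for 5283 (27.6%). The day 10 cultures share no library. Of the 3683 genes that rose in the CM culture 2400 also rose without GF, which is 65.2% of the former and 45.8% of the latter, and 357 fell there. Of the 3663 that fell 2027 also fell without GF, 55.3% and 38.7%, and 539 rose there. With day 4 the corresponding overlaps were 665 rises, 18.1% and 32.5%, and 814 falls, 22.2% and 42.2%, with 418 rises and 382 falls of the CM culture called in the opposite direction. With day 0 the overlaps were 261 rises, 7.09% and 23.5%, and 395 falls, 10.8% and 27.3%, with 419 rises and 249 falls called in the opposite direction.

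Sarcomere genes moved alike in both day 10 cultures. Their median log2 fold was 5.99 in the CM culture and 6.28 without GF, where 27 of 29 rose, and the effects differed for 6 of the 29. At day 4 none of the 29 was called, and 1 rose at day 0. Endothelial genes differed most between the cultures as a count, with 27 of 30 effects different, a median of -0.16 against 2.08, and 28 rises without GF. Lyve1 had a log2 fold of -5.92 in the CM culture and 3.68 without GF (difference -9.60 ± 0.83 SE, adjusted p = 2.85e-11). Epithelial genes differed in all 17 tested cases, with a median of -2.13 against 0.78. For Krt18, a keratin of simple epithelia, the log2 folds were -0.42 and 1.89 (difference -2.31 ± 0.10 SE, adjusted p = 5.76e-20). Cell cycle genes differed in 26 of 33 cases, and 27 of the 33 fell without GF. Neural progenitor and neuron genes differed in 19 of 29 tested cases, with a median of -2.05 against -5.97.

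Some regulators had opposite effects in the cultures. Tbx18 fell in the CM culture at a log2 fold of -2.83 and rose without GF at 2.16 (difference -4.99 ± 0.17 SE, adjusted p = 3.18e-23). Shox2 gave -3.60 against 4.24 (difference -7.85 ± 0.57 SE, adjusted p = 5.48e-10). Lef1 gave 1.95 against -1.11 (difference 3.07 ± 0.16 SE, adjusted p = 3.02e-18). Each of these was called in both cultures and in opposite directions. The Wnt target list as a whole had a median of -0.29 in the CM culture and -1.76 without GF, where 1 of 19 rose and 13 fell. The BMP target list had medians of 2.38 and 1.11, with 11 rises and 4 falls without GF.

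**Figure D5:**
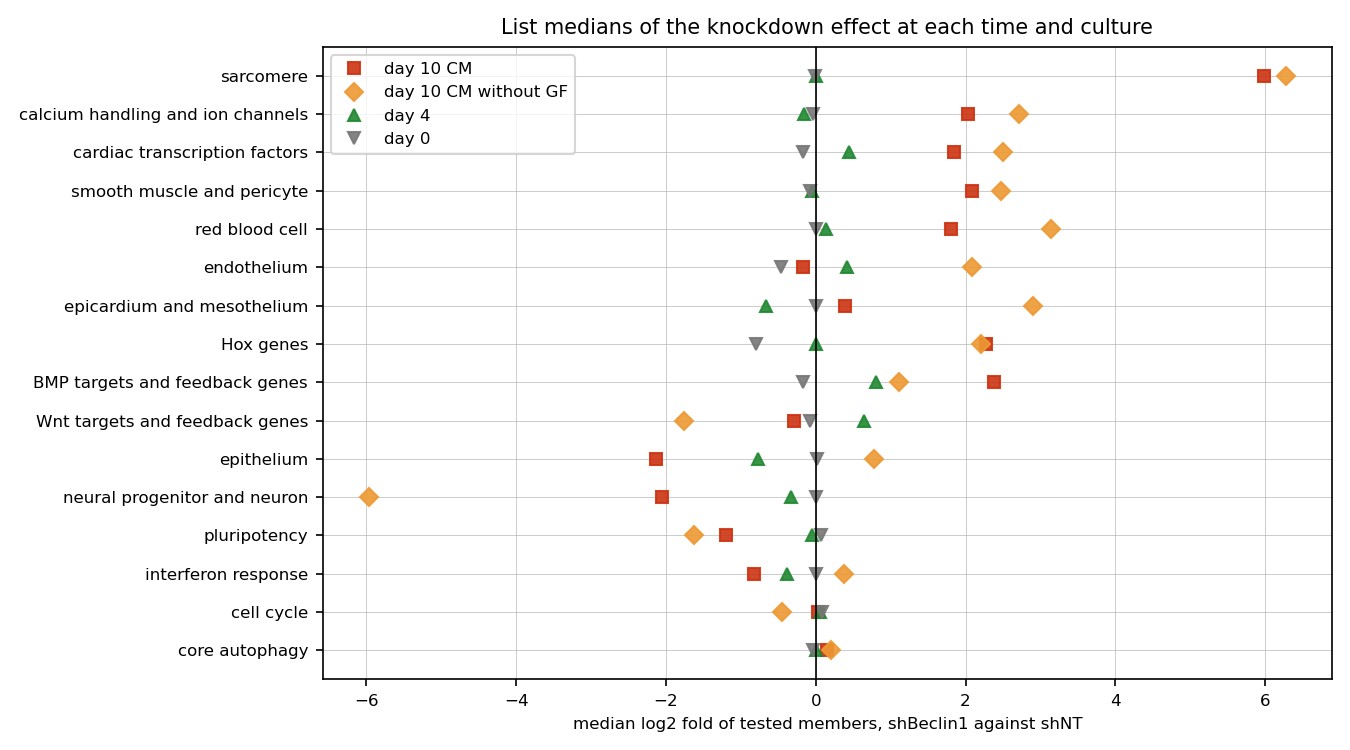
Median log2 fold of shBeclin1 against shNT over the tested members of 16 gene lists in the day 10 CM culture (red squares), the day 10 culture without GF (orange diamonds), day 4 (green triangles) and day 0 (grey inverted triangles). Sarcomere medians are 5.99 and 6.28 in the day 10 cultures and near 0 before, while endothelial, epicardial, epithelial and neural medians lie apart between those cultures. The neural medians are -2.05 in the CM culture and -5.97 without GF.

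Calls were also counted by the course of differentiation, exon length, level and type of gene. Genes that rose at least 2-fold from day 4 to day 10 in shNT cells of the culture without GF numbered 4354, and 21.1% of them rose and 25.9% fell with knockdown in the CM culture. Of the 2668 that fell at least 2-fold over that course 15.4% rose and 28.4% fell. Calls were more frequent in longer genes, with 12.1% rising and 11% falling in the quartile with the shortest exon length and 24.8% and 25.1% in the longest. In the quartile with the highest mean level 31.7% rose and 16.7% fell. In the lowest quartile the shares were 7.23% and 15.9%. Level and length set how many reads a gene has and so bear on the test itself. Protein-coding genes were called in 22.5% as rises and 22.1% as falls.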

How the data were processed

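RNA was sequenced from 16 libraries of ES-E14TG2a cells and their derivatives, 2 per group. Per the labels' protocols, total RNA from TRIzol was depleted of rRNA and made into libraries with a stranded kit, while a molecule tag names polyA RNA. The deposited values are raw read counts, 1 per gene symbol and library. Per the submitters' processing notes the build was mm10 and the tools were Trimmomatic 0.36, featureCounts, Subread 1.5.1 and SAMtools. No source used here gives the aligner or the strand setting, so reads of overlapping genes cannot be told apart. Of the genes named, more than 20% of exon bases overlap another entry in Becn1, Ccnd1, Ctsl, Dll1, Fbn1, Hopx, Hoxd4, Kcnj3, Nppa, Pln, Shh and Tbx18.

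Of 54052 entries, 882 of which repeat a symbol, 19141 passed edgeR's filterByExpr and were tested. Counts were scaled by TMM and fitted for all 16 libraries with 1 mean per group in edgeR 4.0.16 (robust quasi-likelihood test, limma 3.58.1, R 4.3.3), with Benjamini-Hochberg adjustment over all tested genes and a call at adjusted p under 0.05. All adjusted p-values come from this test unless another tool or setting is named. The batch tag repeats the group, so a batch effect cannot be told apart from the hairpin. Depth was 14967744 to 21422980 counts per library. Intervals of count ratios are exact at 95% and cover counting error only, and a group without counts was set to a floor of 3 counts. Positions and exon lengths come from GENCODE vM21, which holds 97.2% of the tested genes. The fitting steps were tested on simulated data.

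The comparison, the gene lists and the rule for named genes were chosen with earlier results of these data known. By that rule the text may name Becn1 and the 12 largest called changes in each direction, provided the mean log2 CPM was 2 or more, the hairpins' libraries did not overlap and the symbol was no predicted gene. It may also name the 4 members of each list with the smallest adjusted p and the 2 with the highest level, all sarcomere, channel and cardiac factor genes, and the 4 largest differences of effects on each side. Alternatives covered scaling, filters, DESeq2 1.42.0, a fold threshold, fewer libraries and a replicate block, and 1 alternative, the 12 libraries without those without GF, was added after the data were seen. Same-numbered day 10 CM libraries did not deviate together.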

Additional observations from a re-analysis of the deposited data

Results flagged for a closer look

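The knockdown effect in the day 10 CM culture differed from the effect in other cells by a test of the difference itself. The number of genes with such a difference was 6584 against the culture without GF, 4993 against day 4 and 5283 against day 0.

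The genes described next had among the largest differences under the rule for named genes. Against the culture without GF, Arg1, which encodes the urea cycle enzyme arginase, differed by -8.19 on the log2 scale, with -5.42 in the CM culture and 2.77 without GF. Its levels in the CM culture were 59.4 and 64.8 CPM in shNT and 1.80 and 1.11 CPM in shBeclin1 libraries. Msx1 differed by 8.17, with 6.81 against -1.37. Dkk1 differed by 6.82, with 3.93 against -2.89. Cabp1, a calcium-binding protein gene, differed by 4.92, with 2.74 against -2.18. Each of these 4 genes was called in opposite directions in the day 10 cultures.

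Against day 4, T differed by -10.97, with -9.21 at day 10 and 1.75 at day 4. Car3 differed by -9.4, with -7.87 against 1.54. Six2 differed by -8.84, with -6.74 against 2.10, and Cd36 by -8.14, with -5.38 against 2.76. These genes were higher with knockdown in embryoid bodies and lower with knockdown in the later culture.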

How the results depend on the processing

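No called direction was reversed under any alternative. Tested against a fold of 1.5 instead of 0, the calls fell to 2767, of which 1264 rose and 1503 fell, and Becn1, at a log2 fold of -0.69, was no longer called (adjusted p = 0.166). That threshold also moved 32 of 80 list counts by over 1.5 times and ended the calls of 15 named genes. Across the other settings the calls numbered 5743 with DESeq2, 7877 in the 4 CM libraries alone, 7605 with total counts as the scaling and 7335 in the 12 libraries without those without GF, and no gene called in both a setting and the reported fit changed sign. With a replicate block, 3712 rose and 3660 fell, 7372 in all, and 98.1% of the reported calls were shared. The correlation of same-numbered deviations between the hairpins was -0.022, and same-numbered libraries were not treated as pairs in the reported fit. Leaving out 1 library, the calls ranged from 5726 to 6186, the rises from 2683 to 3086, the falls from 2857 to 3188 and the log2 fold of Becn1 from -0.71 to -0.68. The differences against the culture without GF ranged from 5353 to 6437, against day 4 from 3941 to 4463 and against day 0 from 4165 to 5561. With 2 libraries per group, genes at a few counts have ratios with wide counting intervals, and small folds cannot be ordered.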

Other observations

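For 3 genes that knockdown raised in the culture without GF the fold in the CM culture was far smaller. Mrc1, the mannose receptor gene of macrophages and sinusoidal endothelium, was at 27.3 and 28.7 CPM in shNT and 28.7 and 29.8 CPM in shBeclin1 libraries, and its log2 fold was 0.07 against 7.01 without GF (difference -6.95 ± 0.32 SE, adjusted p = 1.52e-19). Tcf21, a factor of the epicardium and other mesothelium, was at 2.10 and 2.52 CPM in shNT and 16.7 and 17.3 CPM in shBeclin1 libraries, and its log2 fold was 2.89 against 12.67 without GF. Oit3 was at 3.50 and 2.16 CPM in shNT and 7.34 and 6.61 CPM in shBeclin1 libraries, and its log2 fold was 1.26 against 12.35 without GF. The large folds without GF rest on few shNT counts and are fitted values.

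Calls in the CM culture were not spread evenly over chromosomes. Of 975 tested genes on chromosome 8, 25.7% rose and 15.3% fell, at a median log2 fold of 0.08, against 19.2% and 19.1% over all genes. On chromosome 15 the shares were 24.4% and 18.4% of 717 genes, at a median of 0.05. Of the 17 tested mitochondrial entries 5, or 29.4%, rose and none fell, at a median of 0.16, a share that rests on few entries. Of 13 mitochondrially encoded genes 5 rose, and the rises numbered 3 with total counts as the scaling and 0 against a fold of 1.5. Of their 75-base windows, mt-Nd4 shares 61.5% and mt-Co1 39.8% with other entries. The median over chromosome 8 was 0.15 without GF, 0.06 at day 4 and -0.02 at day 0.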
